A study of Mus musculus with 15 samples.

Results

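The genes described here are 8 markers of homeostatic microglia, the resting macrophages of the brain: *Cx3cr1*, *P2ry12*, *Tmem119*, *Gpr34*, *Selplg*, *Olfml3*, *Siglech* and *Sall1*. They were found by symbol among the 54390 genes of the count tables, and each symbol matched 1 gene. RNA-seq had been performed on 15 libraries of BV2 cells, an immortalized line derived from mouse microglia, to ask how the lipid receptor Trem2 shapes the response of foamy macrophages to cholesterol. The groups were WT non-foamy (n = 4, media alone), WT foamy (n = 4, soluble cholesterol at 20 μg per ml overnight), Trem2-/- non-foamy (n = 3, media alone) and Trem2-/- foamy cells (n = 4, cholesterol at the same dose). The methods describe soluble cholesterol as cholesterol incubated with methyl-beta-cyclodextrin, and no group had this carrier alone. A response to cholesterol below is thus one to cholesterol with its carrier. According to the methods, Trem2-/- cells came from a Cas9-expressing BV2 line, itself a single clone, and were isolated by limiting dilution after editing, so that a difference between genotypes cannot be told apart from one between clones. How many clones were sequenced, and whether WT libraries were from the Cas9 line, is not given in the sources used here. The labels do not say whether replicates were separate cultures, and the p-values then measure the spread between these libraries only.

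Homeostatic microglia sense their surroundings through surface receptors that are largely lost when the cells are activated or kept in culture. CX3CR1 binds the neuronal chemokine fractalkine, P2RY12 senses ADP and guides processes toward damage, and GPR34 responds to lysophosphatidylserine. The program depends on TGF-β and on transcription factors that include SALL1 and PU.1, and TREM2 is known for its part in the shift of microglia away from this state.

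Of the 8 markers, 6 passed the filter on low counts and were tested, *Siglech* was at trace level and *Sall1* had no read. *Selplg* and *Gpr34* held nearly all of the reads. Trem2-/- cells had lower *Cx3cr1* and *P2ry12* and higher *Gpr34* than WT cells, with and without cholesterol. The *Cx3cr1* call with cholesterol was fragile and was lost in 5 of the 8 fits that left out 1 library. *Selplg* was slightly higher in Trem2-/- non-foamy cells. *Olfml3* had at least 10 reads in 6 WT libraries and in 0 Trem2-/- libraries, so it entered the test only through the genotype in which it is high. Cholesterol changed none of the 6 past the threshold in either genotype.

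Each library held 23538963 to 41683825 counted reads, and pairs of replicates were further apart than counting alone would set them (chi-square per gene of 5.75 to 43.3 in 21 pairs, against about 1 from counting alone). Levels are given in CPM, which are reads relative to the library size, here after TMM scaling, a scaling by trimmed means. As a check of the genotype labels, *Trem2* stood at 354 ± 41.2 and 373 ± 26.4 CPM (s.d., n = 4 each) in WT non-foamy and foamy cells and at 222 ± 8.79 (n = 3) and 224 ± 4.56 CPM (n = 4) in the Trem2-/- groups, so the transcript was reduced and not absent. All 10 genes of a list of myeloid identity were tested, with a summed level of 3960 to 4840 CPM in WT and 5830 to 6240 CPM in Trem2-/- libraries. Markers of other brain cells summed to 1.61 to 2.81 CPM (7 of 14 had no read), those of monocytes and neutrophils to 2.71 to 5.37 CPM (*Ly6c2*, *S100a9* and *Ly6g* had no read) and those of lymphocytes to at most 0.254 CPM. Markers of border-associated macrophages, described below, summed to 902 to 2200 CPM, mostly from *F13a1*, against 57.8 to 74.2 CPM for the 8 homeostatic markers. General myeloid genes were thus expressed, but other macrophages share them, so they do not decide the label microglia. The markers that set homeostatic microglia apart from other macrophages were mostly near the lower end of the tested genes.

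*Sall1* (chr8:89027235-89044162), a zinc finger factor that maintains microglial identity, had no read in any of the 15 libraries. That is 0 of 503704621 counted reads, which allows a level of up to 0.00596 CPM when 3 counts are taken as the floor. *Siglech* (chr7:55768178-55778925), a sialic acid-binding receptor that signals through the adaptor DAP12, had 2 reads in Trem2-/- non-foamy replicate 3 and none in the other 14 libraries. Per library, a count of 0 allows up to 0.0720 to 0.127 CPM. These floors cover counting error only.

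Low counts in these tables were mostly even. Among values of 1 to 20, 80.8% to 82.1% were even in each library, and the value 2 was 4.98 to 5.82 times as frequent as the value 1. Of the 89 values above 0 for the 8 markers, 66 (74.2%) were even. A count of both mates of a read pair would give such values, but whether the reads were paired is not given in the sources used here, and the 2 *Siglech* reads may therefore be 1 fragment. If each fragment was counted as 2 reads, the floor of 3 fragments is 6 counts, and a count of 0 then allows up to 0.0119 CPM for *Sall1* over all libraries and 0.144 to 0.255 CPM per library. Calls with all counts halved are given below where they differ.

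Levels of different genes were compared per kilobase of exon, where the 14224 tested genes with a known length had a median of 3.75 CPM per kb. Length was that of all annotated exons of a gene merged, 6.16 kb for *Olfml3*. It can exceed that of the transcript in use, which was not determined, and ranks per length carry this limit. *Selplg* stood at 12.8 CPM per kb, above 77.2% of tested genes, and *Gpr34* at 3.60, above 49.1%. *P2ry12* followed at 0.482 CPM per kb (17.1% of tested genes were lower), *Cx3cr1* at 0.187 (8.3%), *Tmem119* at 0.162 (7.26%) and *Olfml3* at 0.0385 (0.816%). *Csf1r*, which encodes the receptor for CSF1 and is shared with other macrophages, was far higher at 82.4 CPM per kb. *Selplg* alone took 78.8% to 89.0% of the reads of the 8 markers in each library, and *Selplg* with *Gpr34* took 92.6% to 98.2%. A sum over these markers is therefore a measure of *Selplg*.

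**Figure D1:**
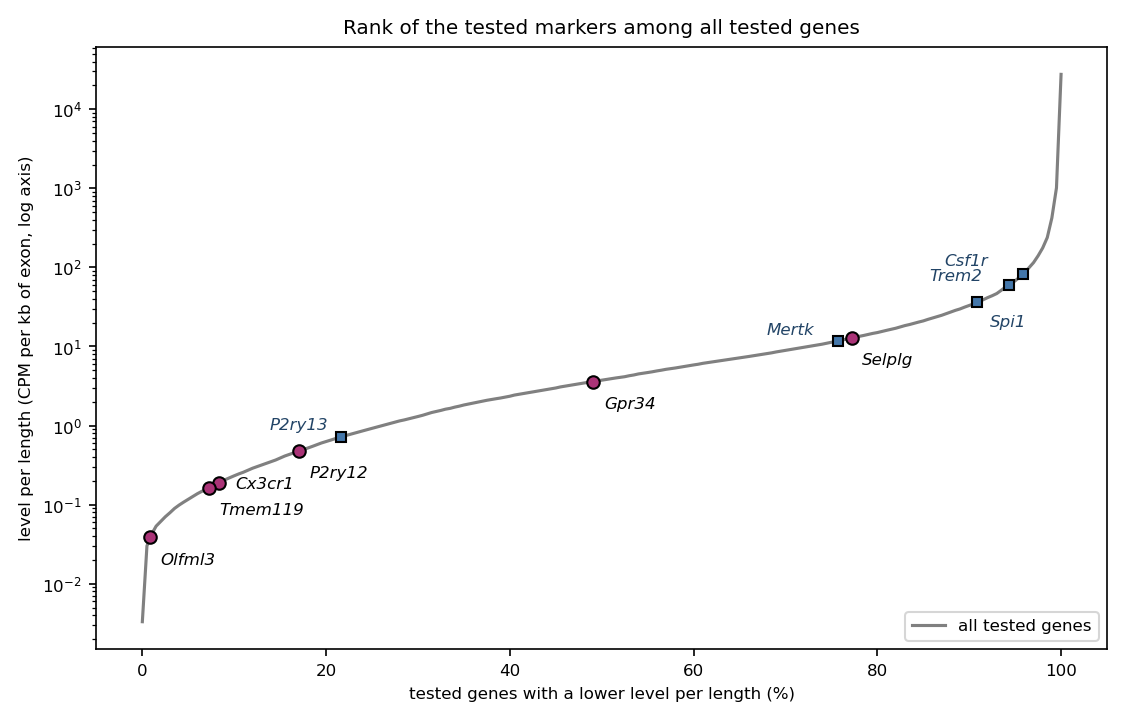
Mean level per length over all 15 libraries (CPM per kb of exon, log axis) against the percentage of tested genes with a lower level. Circles are the 6 tested markers, squares are other macrophage genes and the line is all tested genes; 4 of the 6 markers lie below 20% of the axis, whereas *Csf1r*, *Trem2* and *Spi1* lie above 90%.

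The order of the markers differed between genotypes. In WT non-foamy cells, the order per length was *Selplg*, *Gpr34*, *P2ry12*, *Cx3cr1*, *Tmem119* and *Olfml3*, and no neighbours overlapped. In WT foamy cells the order was the same, but *Tmem119* overlapped both *Cx3cr1* and *Olfml3*. In both Trem2-/- groups *Tmem119* had a higher mean than *Cx3cr1*, and the libraries of these genes overlapped. In Trem2-/- non-foamy cells all neighbours from *P2ry12* downward overlapped, so that only *Selplg* and *Gpr34* stood clear of the rest.

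*Cx3cr1* (chr9:119901616-120069879, minus strand) encodes the fractalkine receptor. It had 50, 44, 34 and 88 reads in the 4 WT non-foamy libraries and 38, 47, 26 and 42 in the WT foamy libraries. In Trem2-/- cells it had 12, 10 and 6 reads without cholesterol and 22, 18, 22 and 4 with it. All 7 Trem2-/- libraries were below all 8 WT libraries after scaling, with foamy replicate 4 the lowest of all at 0.149 CPM. WT cells had a mean level of 1.54 ± 0.292 CPM (s.d., n = 4) without cholesterol and 1.02 ± 0.192 CPM (n = 4) with it. Trem2-/- cells had 0.301 ± 0.0887 CPM (n = 3) and 0.507 ± 0.245 CPM (n = 4). Trem2-/- against WT gave a log2 fold change of −2.35 (adjusted p = 7.61e-05, edgeR quasi-likelihood test, s.e. 0.42) without cholesterol, which is 5.10-fold lower. With cholesterol it was −0.98 (adjusted p = 0.0401, s.e. 0.35), which is 1.97-fold lower. The second call was fragile. It was lost in 5 of the 8 fits that left out 1 library, with adjusted p of up to 0.114, and the log2 fold change was −0.70 without Trem2-/- foamy replicate 4. Exons of the opposite-strand gene *Gm33858* cover 1.73% of its exonic bases, and the strand setting of the counting is not given in the sources used here.

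*P2ry12* (chr3:59216272-59262871, minus strand) encodes the ADP receptor that clopidogrel-type drugs block on platelets. The WT libraries held 64, 40, 56 and 69 reads without cholesterol and 74, 77, 68 and 45 with it. The Trem2-/- libraries held 22, 14 and 20 reads without cholesterol and 33, 20, 24 and 25 with it. Again every Trem2-/- library was below every WT library after scaling. Mean levels were 1.74 ± 0.509 and 1.76 ± 0.337 CPM (n = 4 each) in WT non-foamy and foamy cells, against 0.598 ± 0.0824 (n = 3) and 0.810 ± 0.139 (n = 4) in the Trem2-/- groups. The log2 fold change was −1.51 (adjusted p = 0.000302, edgeR, s.e. 0.30) without and −1.12 (adjusted p = 0.00254, s.e. 0.26) with cholesterol. Both calls were made in every fit that left out 1 library, with log2 fold changes of −1.63 to −1.32 and −1.24 to −1.02. The gene lies inside *Med12l*, which is on the opposite strand, and 0.354% of its exonic bases are shared with exons of that gene.

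*Olfml3* (chr3:103722222-103738001, minus strand) encodes a secreted olfactomedin-like protein. WT cells had 18, 6, 7 and 12 reads without cholesterol and 18, 10, 23 and 10 with it. Trem2-/- cells had 5, 8 and 0 reads without cholesterol and 4, 4, 0 and 2 with it. The foamy groups did not overlap, whereas the non-foamy groups did. Mean levels were 0.309 ± 0.116 and 0.417 ± 0.207 CPM (n = 4 each) in WT non-foamy and foamy cells, and 0.144 ± 0.144 (n = 3) and 0.0782 ± 0.0566 CPM (n = 4) in the Trem2-/- groups. The genotypes differed by a log2 fold change of −2.34 in foamy cells (95% interval −3.81 to −0.86, adjusted p = 0.0157, edgeR). In non-foamy cells it was −1.12 (−2.66 to 0.42, adjusted p = 0.237), and −2.00 without Trem2-/- non-foamy replicate 2 and −0.55 without replicate 3. No Trem2-/- library exceeded 8 reads, and the gene passed the filter through WT libraries alone, so that the first value is a selected one. With all counts halved, the gene did not pass the filter and had no test.

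*Tmem119* (chr5:113793729-113800516, minus strand) encodes a membrane protein that is used as an antibody target to tell microglia from infiltrating macrophages. Its reads were 16, 6, 8 and 24 in WT non-foamy and 26, 2, 14 and 19 in WT foamy libraries. The Trem2-/- non-foamy libraries held 10, 4 and 22 reads and the foamy libraries 20, 8, 4 and 10. All 4 groups overlapped. Mean levels were 0.374 ± 0.143, 0.412 ± 0.256 (n = 4 each), 0.386 ± 0.305 (n = 3) and 0.327 ± 0.182 CPM (n = 4) in the same order. The log2 fold change between genotypes was 0.02 (95% interval −1.34 to 1.38, adjusted p = 0.983, edgeR) without and −0.31 (−1.56 to 0.94, adjusted p = 0.74) with cholesterol. At this depth, changes smaller than these intervals were not detectable.

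*Gpr34* (chrX:13632089-13640858, plus strand), the lysophosphatidylserine receptor, went the other way. WT libraries held 236, 162, 137 and 252 reads without cholesterol and 184, 249, 201 and 233 with it. Trem2-/- libraries held 341, 300 and 226 reads without cholesterol and 390, 295, 178 and 295 with it. The non-foamy genotypes did not overlap, and in foamy cells Trem2-/- replicate 3 lay within the WT range. Levels were 5.75 ± 0.414 and 5.84 ± 0.964 CPM (n = 4 each) in WT and 9.34 ± 1.70 (n = 3) and 9.20 ± 2.49 CPM (n = 4) in Trem2-/- cells. The log2 fold change was 0.70 (adjusted p = 0.00353, edgeR, s.e. 0.18) without cholesterol and 0.66 (adjusted p = 0.00515, s.e. 0.17) with it. Both calls were made in every fit that left out 1 library (0.58 to 0.84 and 0.55 to 0.83). The gene lies inside *Cask*, on the opposite strand, and shares no exonic bases with it.

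*Selplg* (chr5:113818536-113832644, minus strand) encodes PSGL-1, the ligand of P-selectin on leukocytes, and is 18.0 kb from *Tmem119* with 1 processed pseudogene between them. It had 1879, 1584, 1172 and 2146 reads in WT non-foamy and 2296, 2246, 1712 and 1846 in WT foamy libraries. Trem2-/- libraries held 1942, 1641 and 1863 reads without cholesterol and 2200, 1889, 1843 and 1247 with it. After scaling, each Trem2-/- non-foamy library was above each WT non-foamy library, and Trem2-/- foamy replicate 4 was the lowest of all 15. Levels were 49.8 ± 1.78 and 53.9 ± 1.53 CPM (n = 4 each) in WT and 58.7 ± 3.19 (n = 3) and 56.5 ± 6.88 CPM (n = 4) in Trem2-/- cells. Between the genotypes the log2 fold change was 0.24 (adjusted p = 0.0165, edgeR, s.e. 0.08) without and 0.07 (adjusted p = 0.519, s.e. 0.07) with cholesterol. Scaling by total counts alone ended the first call (0.10, adjusted p = 0.423), as did leaving out 1 library in 2 of 7 fits (adjusted p of up to 0.0859).

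**Figure D2:**
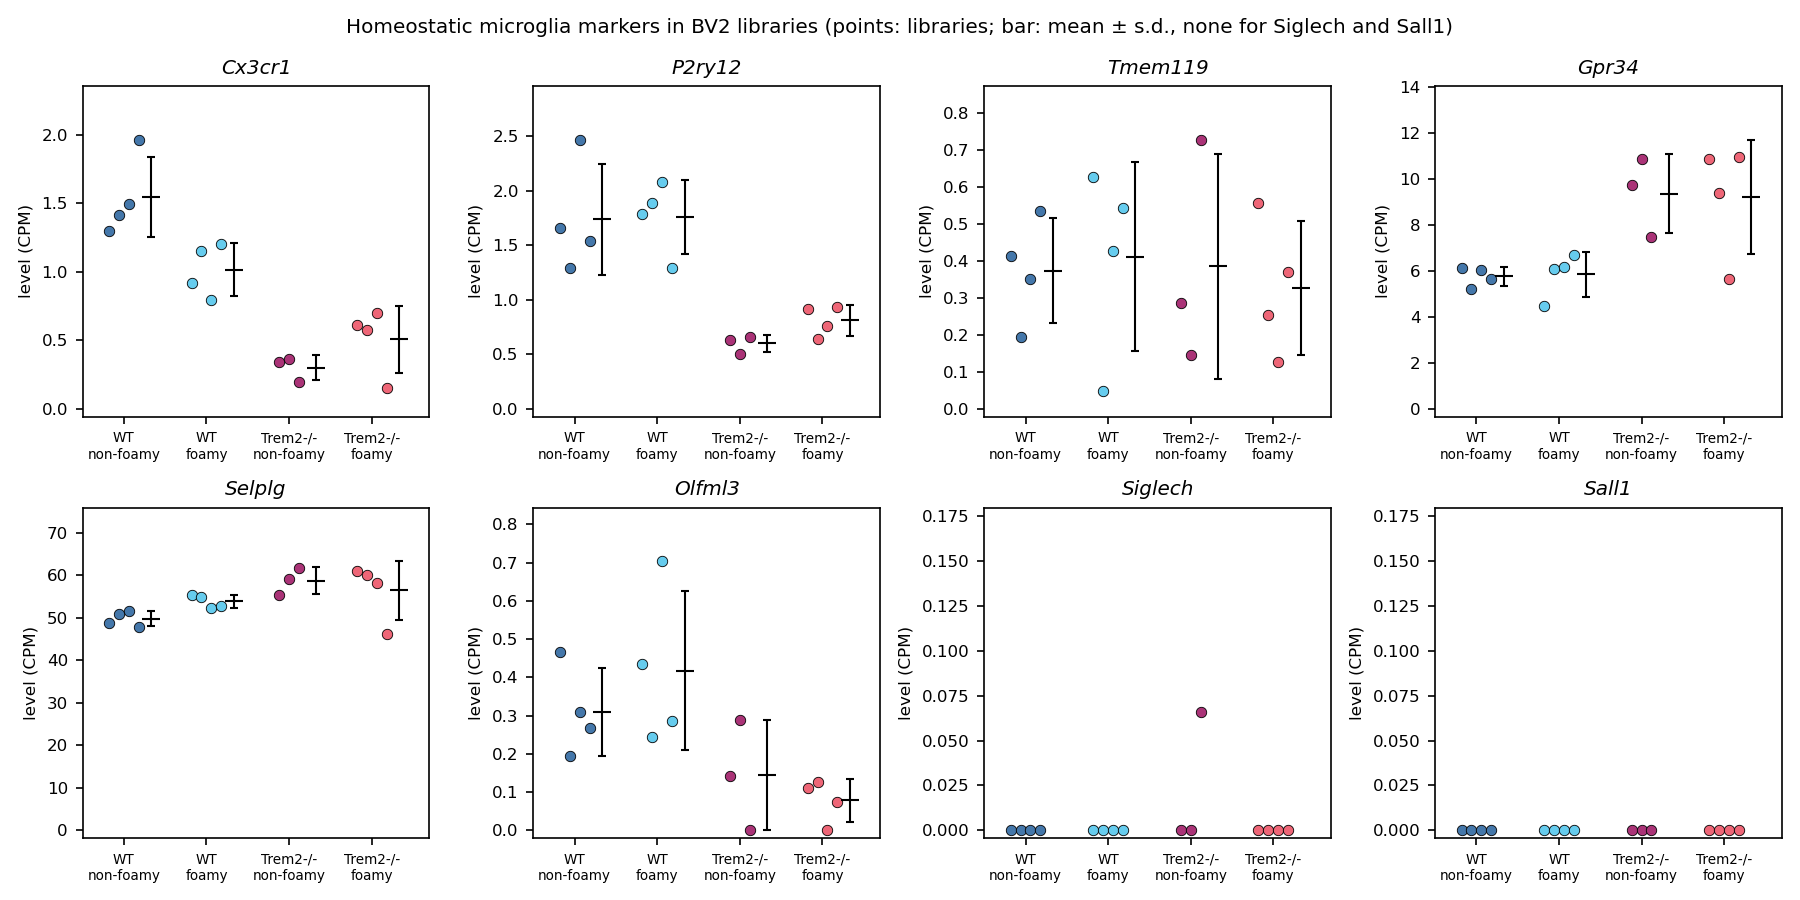
Level of each of the 8 markers (CPM after TMM scaling, linear axis from 0, a separate scale per gene) in the 15 libraries by group. Points are libraries and bars are the mean and s.d.; *Cx3cr1* and *P2ry12* are lower in all 7 Trem2-/- libraries than in all 8 WT libraries, *Gpr34* is higher in Trem2-/- groups with 1 foamy library within the WT range, and *Sall1* is at 0 throughout.

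Between genotypes without cholesterol, 4 of the 6 tested markers were called by edgeR, 2 higher and 2 lower, against 43.6% of all 14237 tested genes (21.0% higher and 22.6% lower). With cholesterol 4 were called, 1 higher and 3 lower, against 30.2% of all tested genes (14.3% higher and 15.9% lower). Groups did not overlap for 4 of the 6 without cholesterol (46.1% of all tested genes) and for 3 with it (28.8%). With so large a share of all genes called, these counts say little about the markers as a set. The 6 genes passed a filter that favours genes high in at least 1 group, and *Olfml3*, 1 of the lower calls with cholesterol, passed it through WT libraries alone. The median log2 fold change of the 6 was −0.55 without and −0.65 with cholesterol, beside 0.02 and 0.00 over all tested genes. Without cholesterol the median lies between *Olfml3* (−1.12) and *Tmem119* (0.02), neither of them called. It thus depends on *Olfml3*, which is a selected gene, and neither median is evidence of a shift of the set. Of the calls over all genes, 48.1% were higher without cholesterol and 47.4% with it, and with scaling by total counts alone these shares were 29.4% and 23.3%, since the median of all genes then moved to −0.13 in both comparisons. Relative to that shift, the directions of *Cx3cr1*, *P2ry12*, *Olfml3* and *Gpr34* were the same.

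Markers of border-associated macrophages, the macrophages of the brain's surfaces, and general myeloid genes both moved with the genotype. Of the 10 genes of the myeloid list, 7 were higher and 1 lower in Trem2-/- cells in each comparison, beside 21.0% of all tested genes higher without and 14.3% with cholesterol. The summed level of the border-associated markers was 902 to 1240 CPM in WT and 1810 to 2200 CPM in Trem2-/- libraries. Most of it came from 1 gene, *F13a1*, with means of 759 and 957 CPM in WT non-foamy and foamy cells. In the Trem2-/- non-foamy and foamy groups *F13a1* stood at 1774 and 1486 CPM. The sum is therefore mostly a measure of *F13a1*. *Lyve1* and *Folr2* had only 32 and 89 reads over all libraries. Of 9 genes, 7 were tested and 6 were higher in Trem2-/- cells in each comparison, and *Cd163* had no read. *Mrc1* was at a log2 fold change of 1.94 and 1.69 (adjusted p = 1.69e-16 and 8.55e-16, edgeR). With scaling by total counts alone, 6 of these markers were higher without and 5 with cholesterol. The part of both lists in the marker results was not tested. In bulk RNA, fewer cells with a transcript and less transcript per cell cannot be told apart.

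The response to cholesterol was tested in each genotype. In WT cells 0 of the 6 markers were called by edgeR, beside 2.80% of all tested genes (1.66% higher and 1.14% lower). At an unadjusted p under 0.05 the count was also 0, and DESeq2 called 0 of the 4 to which it gave an adjusted p (not *Tmem119* and *Olfml3*). For 2 of the 6 markers the libraries with and without cholesterol had no overlap, against 9.71% of all tested genes. These were *Cx3cr1*, which was lower in all 4 foamy libraries with a log2 fold change of −0.60 (95% interval −1.28 to 0.07, adjusted p = 0.37), and *Selplg*, higher in all 4 with 0.12 (−0.04 to 0.27, adjusted p = 0.465). For *P2ry12* the estimate was 0.03 (−0.48 to 0.55) and for *Gpr34* 0.02 (−0.34 to 0.38). Of the WT calls over all genes, 59.4% were higher in foamy cells, and 41.8% with scaling by total counts alone.

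In Trem2-/- cells again 0 of the 6 were called by edgeR, beside 0.140% of all tested genes (0.105% higher and 0.0351% lower), with 0 at an unadjusted p under 0.05. DESeq2 gave an adjusted p to 2 of them, *Gpr34* and *Selplg*, and called 0. No marker separated the groups (9.26% of all tested genes did). The estimates were 0.77 for *Cx3cr1* (95% interval −0.15 to 1.69, adjusted p = 0.825) and 0.43 for *P2ry12* (−0.23 to 1.09, adjusted p = 0.873). Those for *Gpr34* (−0.02) and *Selplg* (−0.06) were close to 0, and those for *Tmem119* and *Olfml3* had intervals of more than 2 log2 units in width.

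**Figure D3:**
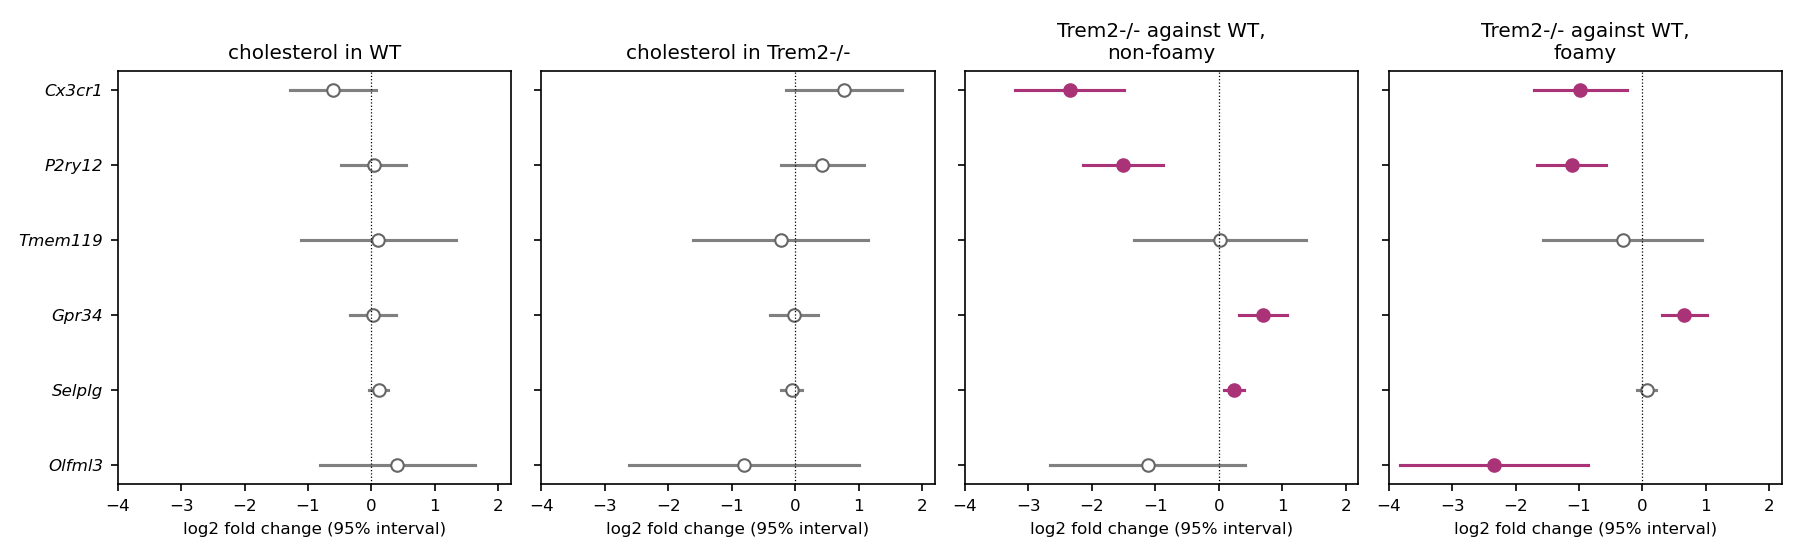
Log2 fold change with its 95% interval (edgeR, all 15 libraries) for the 6 tested markers in 4 comparisons. Filled points passed an adjusted p of 0.05; they occur in the genotype panels only, with *Cx3cr1*, *P2ry12* and *Olfml3* on the left of 0 and *Gpr34* and *Selplg* on the right.

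The difference between the responses of Trem2-/- and WT cells was called for 0 of the 6 by edgeR, beside 3.64% of all tested genes (1.99% higher and 1.64% lower). At an unadjusted p under 0.05 there was 1, *Cx3cr1*, with a difference of 1.37 on the log2 scale (s.e. 0.55, adjusted p = 0.182, edgeR). Its adjusted p was 0.0505 to 0.362 over the 15 fits without 1 library. DESeq2 gave an adjusted p to *P2ry12*, *Gpr34* and *Selplg* only, called 0 of these 3 and had none for *Cx3cr1*. Of the calls over all genes in this comparison, 54.8% were higher, and 70.3% with scaling by total counts alone.

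Genes with the most similar profiles were found by the root mean square difference of log2 CPM over the 15 libraries, each profile centred on its own mean, among the 11708 tested genes whose mean reached 1 CPM. For *P2ry12*, whose own profile varied by 0.667 on this measure, the 3 nearest included *C430042M11Rik* (0.251) and *Gm14221* (0.270). For *Gpr34* (0.412) they were *Aig1* (0.183), *Gm14325* (0.189) and *BC028528* (0.194). For *Selplg* (0.127) they were *Stxbp2* (0.0521), *Adssl1* (0.0620) and *Nkiras2* (0.0648). None of these genes is a member of the marker lists. *Cx3cr1* and *Olfml3* had means under 1 CPM and were not compared.

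Promoter sequence was taken from RefSeq (GRCm38.p6), which matched 5 of the 8 markers; *Tmem119*, *Gpr34* and *Selplg* had no entry. The 250 bases before the start were searched on both strands for GAGGAA (the core bound by PU.1), GGAAGT (an ETS-type core), CAGAC (a SMAD-type core) and GGGCGG (a GC box). Of 32851 windows of the same length, 23.3%, 19.7%, 42.2% and 32.7% held them. The windows of the lower markers *Cx3cr1* and *P2ry12* overlap annotated exons and are described only. The *Cx3cr1* window held CAGAC 226 bases before the start, and the *P2ry12* window held CAGAC at 210 and GGAAGT at 51. The window of *Olfml3* (chr3:103738002-103738251, minus strand) held GGGCGG 3 times, at 19, 13 and 8 bases before the start, of which the latter pair share 1 base. That of *P2ry13* (chr3:59210883-59211132, minus strand), the ADP receptor gene beside *P2ry12*, held GAGGAA at 48. Of these latter genes, *Olfml3* was called lower in Trem2-/- cells with cholesterol and *P2ry13* both without and with it (the latter call was fragile). Their windows are shown 5′ to 3′ with the matches in capitals.
Olfml3: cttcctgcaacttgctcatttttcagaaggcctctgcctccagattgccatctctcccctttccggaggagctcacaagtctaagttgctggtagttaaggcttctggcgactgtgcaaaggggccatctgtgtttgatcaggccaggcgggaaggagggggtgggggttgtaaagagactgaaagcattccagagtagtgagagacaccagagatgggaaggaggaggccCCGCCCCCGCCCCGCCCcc
P2ry13: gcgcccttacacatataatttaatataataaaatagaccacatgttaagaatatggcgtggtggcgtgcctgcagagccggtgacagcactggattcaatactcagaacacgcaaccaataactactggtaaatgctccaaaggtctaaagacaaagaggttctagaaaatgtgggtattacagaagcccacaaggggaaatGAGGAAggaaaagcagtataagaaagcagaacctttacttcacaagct
None of the 5 markers had GAGGAA in its window. A match is a description of the letters and not evidence of a bound factor.

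Among other genes of the homeostatic state, nearly all of those called were higher in Trem2-/- cells. Of a list of 28, 21 were tested, 5 were at trace level (*Slc2a5*, *Slco2b1*, *Gas6*, *Pros1* and *Crybb1*) and 2 had no read (*Sparc* and *Upk1b*). *Csf1r*, *Itgam* and *Aif1* are also in the myeloid list above, so the lists are not separate results. Genes of this list that other macrophages share, such as *Csf1r*, do not by themselves measure the homeostatic state. The edgeR fit called 12 higher and 1 lower without cholesterol (median log2 fold change 0.46), and 11 higher and 1 lower with cholesterol (median 0.31). The shares of all tested genes called higher were 21.0% and 14.3% in these comparisons, and those called lower 22.6% and 15.9%. With scaling by total counts alone the counts were 11 higher and 3 lower, and 8 higher and 4 lower. *Ctss*, which encodes cathepsin S, rose by a log2 fold change of 1.12 without cholesterol (adjusted p = 2.5e-10, edgeR), and *Csf1r* by 0.61 (adjusted p = 8.86e-06). With cholesterol *Csf1r* was at 0.31 (adjusted p = 0.00691), a call that was lost with scaling by total counts alone (0.18, adjusted p = 0.219). *Mertk*, a receptor for the clearance of dying cells, rose by 1.23 without and 0.50 with cholesterol (adjusted p = 2.02e-10 and 5.84e-05). *Ltc4s*, which makes leukotriene C4, had the highest value of the list, 1.75 (adjusted p = 5.49e-08) and 1.21 (adjusted p = 6.55e-06).

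The single lower gene of that list was *P2ry13*. It is 5.39 kb from *P2ry12* with no gene between them, and like it lies inside *Med12l*. It had 57 to 152 reads in WT non-foamy, 68 to 88 in WT foamy, 30 to 48 in Trem2-/- non-foamy and 34 to 48 in Trem2-/- foamy libraries. Its log2 fold change was −1.13 (adjusted p = 0.00108, edgeR, s.e. 0.26) without and −0.63 (adjusted p = 0.0437, s.e. 0.23) with cholesterol. The call with cholesterol was lost in 7 of the 8 fits without 1 library (−0.74 to −0.52, adjusted p of up to 0.123), in the fit without a filter (adjusted p = 0.056) and with the replicate block (adjusted p = 0.0611). The call without cholesterol was made in all 7 fits without 1 library and in both of the latter fits.

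In response to cholesterol, 1 of the 21 genes (4.76%) was called in WT cells by edgeR, near the 2.80% of all tested genes. It was *Mertk*, which rose from 29.3 ± 2.82 to 43.7 ± 5.94 CPM (log2 fold change 0.57, adjusted p = 0.000279). In Trem2-/- cells 0 were called, beside 0.140% of all tested genes. At an unadjusted p under 0.05 there were 3, beside 918 of all 14237 tested genes. The difference between the responses was called for 9.52% of the 21, beside 3.64% of all tested genes. These were *Mertk* (−0.73, adjusted p = 0.00099, edgeR) and *Ctss* (−0.44, adjusted p = 0.0301). The *Mertk* difference was called in all 15 fits without 1 library and the *Ctss* difference in 5 of them.

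Genes for ligands, enzymes and signalling partners of the 8 markers were mixed. Of 15, 10 were tested. The ligand genes were nearly silent, with 8 reads in all for *Cx3cl1* (fractalkine), 1 for *Selp* (P-selectin) and none for *Sele* (E-selectin) or *Bmp4*. Without cholesterol 3 were higher and 3 lower in Trem2-/- cells (median −0.03), and with it 4 were higher and 2 lower (median 0.01, and −0.11 with scaling by total counts alone). That is 6 of 10 in each, beside 43.6% and 30.2% of all tested genes. *Entpd1*, which encodes the ectoenzyme CD39 that breaks down extracellular ATP and ADP, rose by 0.86 (adjusted p = 8.8e-10, edgeR) without and 0.47 (adjusted p = 5.49e-06) with cholesterol. It also rose with cholesterol in WT cells, by 0.29 (adjusted p = 0.0128), and its responses differed between the genotypes by −0.39 (adjusted p = 0.0214). That difference was called in 10 of 15 fits without 1 library, and the response in WT cells in 6 of 8. *Tyrobp*, which encodes the DAP12 adaptor of TREM2 and Siglec-H, rose by 0.49 and 0.46 (adjusted p = 0.00052 and 0.00108). *Abhd12*, a hydrolase of lysophosphatidylserine, rose by 0.21 and 0.25 (adjusted p = 0.00351 and 0.000607), which scaling by total counts alone reduced to 0.070 and 0.12 without a call. *Abhd16a*, which makes that lipid, was lower without cholesterol (−0.24, adjusted p = 0.0118), but not past the threshold without Trem2-/- non-foamy replicate 2 (adjusted p = 0.0877). *St3gal4*, a sialyltransferase that builds selectin ligands, fell by 0.33 and 0.23 (adjusted p = 0.000431 and 0.00859).

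Transcription factors of the myeloid lineage were expressed. Of 12, 11 were tested, and *Sall4* had no read. *Spi1*, which encodes PU.1, stood at 36.1 CPM per kb, above 90.9% of tested genes, and gave 0.07 and 0.06 between the genotypes without a call. *Sall3*, a relative of *Sall1*, had 1227 reads over the 15 libraries. Without cholesterol 5 were higher and 1 lower in Trem2-/- cells (median 0.24), and with cholesterol 3 were higher and 1 lower (median 0.01, and −0.12 with scaling by total counts alone). These are 54.5% and 36.4% of the 11, near the 43.6% and 30.2% of all tested genes. *Mef2c*, a factor linked to microglial restraint, was the lower one, at −0.63 (adjusted p = 1.37e-07, edgeR) and −0.55 (adjusted p = 7.54e-07). *Irf8*, *Bhlhe40* and *Bhlhe41* were higher in both comparisons, at 0.55, 0.82 and 0.79 without cholesterol. With cholesterol, the calls of *Irf8* and *Bhlhe41* were lost with scaling by total counts alone. The responses to cholesterol differed between the genotypes for *Bhlhe41* (−0.56, adjusted p = 0.00175), *Bhlhe40* (−0.46, adjusted p = 0.00737) and *Mef2a* (−0.34, adjusted p = 0.0416). The first and second were called in all 15 fits without 1 library and the *Mef2a* difference in 4.

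Of 12 genes of the TGF-β pathway, 11 were tested. Without cholesterol 1 was higher in Trem2-/- cells, the receptor gene *Tgfbr1* (0.37, adjusted p = 0.000403, edgeR). With cholesterol 2 were lower, the ligand gene *Tgfb1* (−0.31, adjusted p = 0.0159, lost in 2 of 8 fits without 1 library) and the inhibitor gene *Skil* (−0.37, adjusted p = 0.0107). With scaling by total counts alone, 1 was higher and 3 were lower without cholesterol and 4 were lower with it. *Itgb8*, an integrin gene for the release of active TGF-β, had 2 reads in all. The shares called, 9.09% without and 18.2% with cholesterol, were below the 43.6% and 30.2% of all tested genes.

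**Figure D4:**
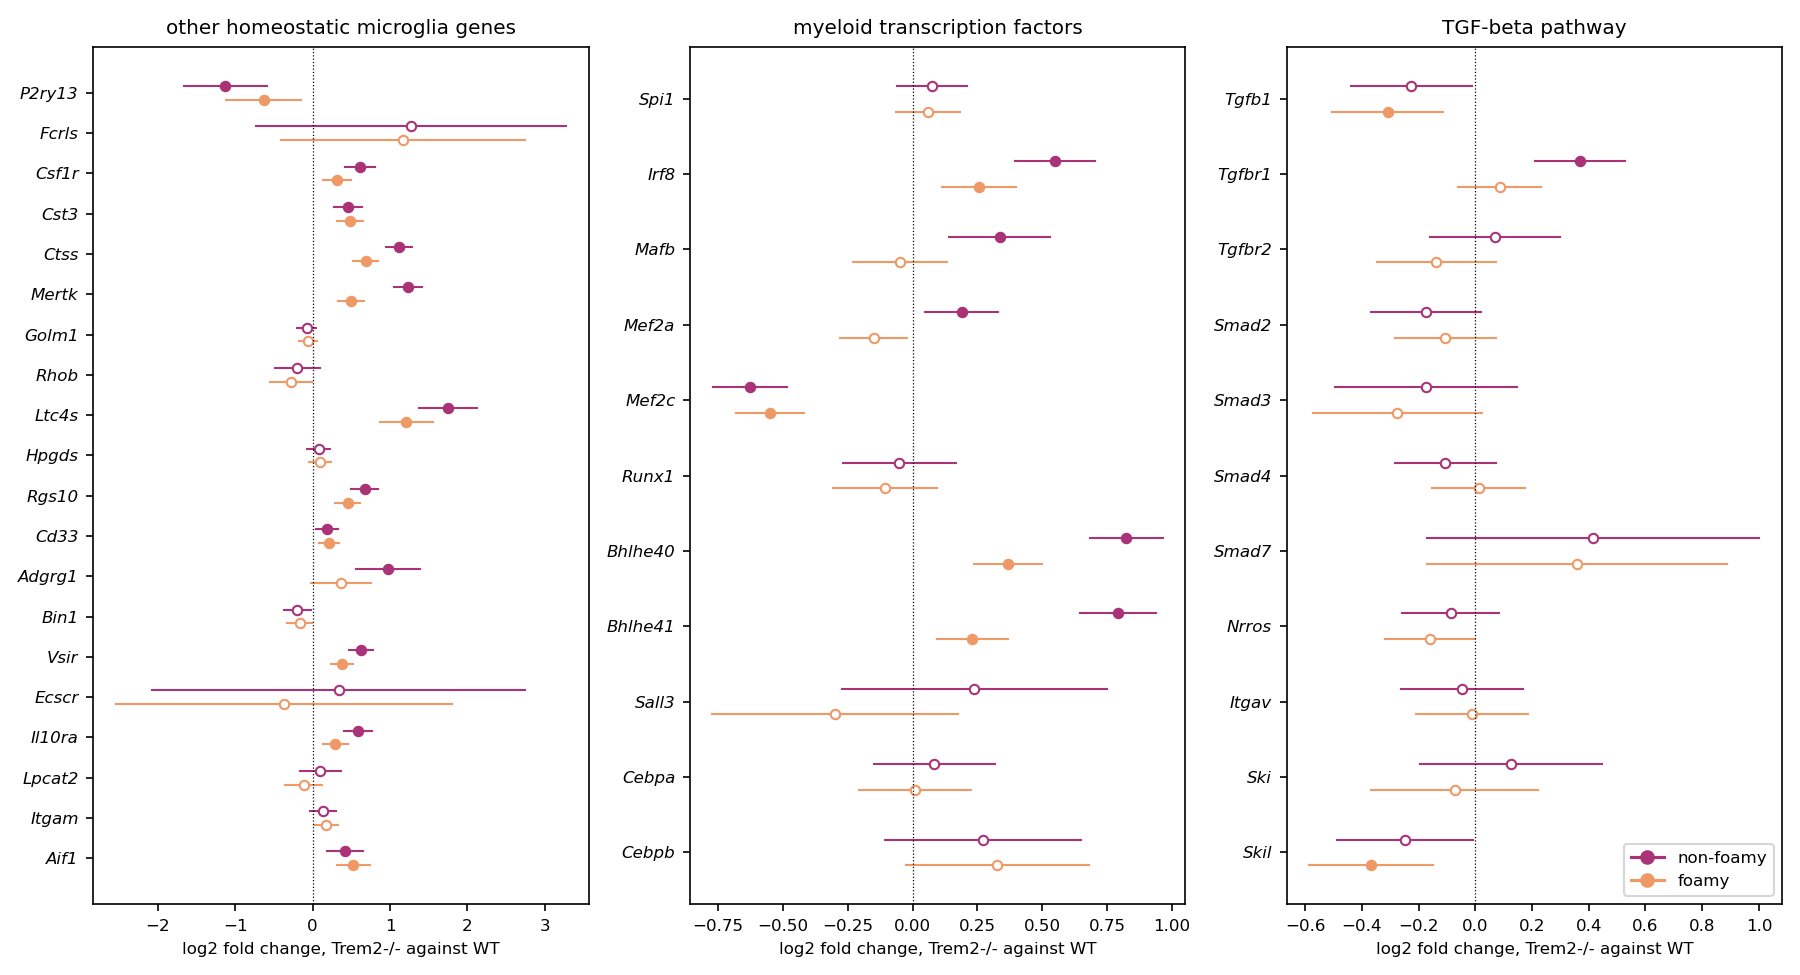
Log2 fold change of Trem2-/- against WT with its 95% interval (edgeR), without cholesterol (non-foamy) and with it (foamy), for the tested genes of 3 lists (1 gene of the first is not shown), each panel on its own scale. Filled points passed an adjusted p of 0.05; in the left panel *P2ry13* is the only filled point below 0, and in the middle panel *Mef2c* is.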

How the data were processed

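Bulk RNA-seq counts of 15 BV2 libraries were analysed. The authors deposited 1 table for each library, with the raw count of reads on every gene and no normalization. Per the methods, reads were trimmed with Trimmomatic, aligned to GRCm38 (mm10 per the labels) with HISAT2 and counted with featureCounts. Strand and read pairing are not given in the sources used here.

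The 14237 genes passing filterByExpr (minimum count 10) held 99.97% of counts. All libraries were scaled with TMM factors (0.918 to 1.11) and fitted with 1 mean per group by glmQLFit and glmQLFTest of edgeR 4.0.16 (R 4.3.3). A gene was called at a Benjamini-Hochberg adjusted p under 0.05 over all tested genes, in 5 comparisons. DESeq2 1.42.0 was an alternative. The procedure was tested on simulated data. Exonic lengths and overlaps came from GENCODE M21.

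The markers and lists were chosen with earlier results of these data known. Named were all 8 markers, *Trem2*, list members, the 3 most similar genes per marker and overlapping genes. *Mrc1*, *F13a1*, *Lyve1*, *Folr2*, *Cd163*, *Ly6c2*, *S100a9* and *Ly6g*, from lists outside that rule, were named after their values were seen. The values of 2 genes that the rule names are not reported here. Same-numbered replicates showed little shared deviation (correlations of −0.0766 to 0.143), and differently numbered replicates were not compared.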

Additional observations from a re-analysis of the deposited data

Results flagged for a closer look

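Of 78 sets of 4 libraries examined for the 8 markers, *Trem2* and the named genes of the lists, 6 had a library apart from the others, where chance gives about 1 in 20. None was a set of a marker, and *F13a1*, *Lyve1* and *Folr2* were not among the genes examined here. In Trem2-/- foamy replicate 3, *Trem2* stood at 217.6 CPM, below the other libraries of its group. WT non-foamy replicate 3 stood apart for 3 genes, with 2077 CPM for *Ctss*, 25.2 CPM for *Mertk* and 1582 CPM for *Tyrobp*. *Abhd16a* was at 37.7 CPM in WT foamy replicate 1 and *Mef2a* at 52.9 CPM in WT foamy replicate 4.

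The response to cholesterol differed between Trem2-/- and WT cells, by the test of the difference itself in edgeR, for 6 of the named genes of the lists that were examined. It was called for none of the 6 tested markers and for 3.64% of all tested genes. The named genes were a choice from the lists, so their count is not a rate to set against that share. In 15 fits without 1 library, the *Ctss* difference was called in 5 and the *Mef2a* difference in 4. The differences were −0.73 for *Mertk*, −0.56 for *Bhlhe41*, −0.46 for *Bhlhe40*, −0.44 for *Ctss*, −0.39 for *Entpd1* and −0.34 for *Mef2a* on the log2 scale, so each response was lower in Trem2-/- than in WT cells.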

How the results depend on the processing

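Of the genotype calls, those of *P2ry12* and *Gpr34* and that of *Cx3cr1* without cholesterol were made under every alternative tried: DESeq2, RLE factors, total counts alone, no filter, at least 10 reads in every library where the gene passed it, only the compared libraries, a replicate block, halved counts and leaving out each library. The call of *Olfml3* with cholesterol was made in all 5 alternatives and 6 fits without 1 library in which it was tested (adjusted p of 0.0151 to 0.0477 in the latter, edgeR). In the other alternatives and fits it had no test. As *Olfml3* passed the filter through WT libraries alone, these fits are not support for that call. With a mean of at least 1 CPM, 3 markers in place of 6 counted as detected, and with at least 3 reads in every library or halved counts 4 did. The number of markers called between genotypes with cholesterol was 2 with at least 10 reads in every library and 2 with only the compared libraries, in place of 4. Without 1 library it was 2 to 4 (2 without WT foamy replicate 1), and without cholesterol 3 to 4. Halving the counts was chosen after seeing the data.

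With scaling by total counts alone, *Tmem119* without cholesterol turned to −0.12 (adjusted p = 0.908) and *Selplg* with cholesterol to −0.060 (adjusted p = 0.638), while the median of all genes moved to −0.13. The causes of these changes were not tested beyond that shift. Directions also turned in some fits without 1 library for estimates that were never called: *Gpr34* ranged from −0.050 to 0.13 in the response of WT cells, from −0.16 to 0.15 in that of Trem2-/- cells and from −0.18 to 0.13 in the difference, *P2ry12* from −0.081 to 0.23 in WT cells, *Selplg* from −0.097 to 0.027 and *Olfml3* from −1.38 to 0.072 in Trem2-/- cells. *Tmem119* ranged from −0.19 to 0.49, −0.64 to 0.58 and −0.74 to 0.47 in the same 3 comparisons and from −0.79 to 0.40 between genotypes without cholesterol.

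The labels do not say what the replicate numbers mean, and no clear pairing of libraries by these numbers was seen. With them as a replicate block, *Cx3cr1* with cholesterol was at −0.97 (adjusted p = 0.0676) and no longer called, 3 markers in place of 4 were called in that comparison, and no other call of a marker changed; among the other named genes, *P2ry13* with cholesterol (adjusted p = 0.0611) and the differences between the responses of *Ctss* (adjusted p = 0.0529) and *Mef2a* (adjusted p = 0.068) were lost. The *Cx3cr1* call was also lost with only the compared libraries (adjusted p = 0.0607). Over all genes, the calls in the response of WT cells, in that of Trem2-/- cells and in their difference were 399, 20 and 518. DESeq2 gave 881, 56 and 985, and without a filter there were 607 for the first and 61 for the second. The first was 144 with only the compared libraries and the third 294 with the replicate block. Without 1 library they were 146 to 526, 10 to 18 and 201 to 661. For *Tmem119* and *Olfml3*, with at most 26 and 23 reads in a library, depth limits what can be seen.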
